A study of Homo sapiens with 20 samples.

Results

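The genes BTBD3, NRIP1, ALOX5AP, PBDC1, DNAJC12 and APBA1 were followed across 10 groups of proteasome inhibitor-resistant and parental cells, and are 6 of the 18305 genes listed. They were selected on measured values of this series, because RNA level moved in 1 direction in all 5 resistant myeloma groups against the wild-type (WT) cells of the same line, at 1 or more of the pseudocounts tried. The 5 comparisons that chose them are therefore given as a description. Which of the genes passed a test in them is listed later, and nothing is read from it. For these 6 genes, test results are read only for differences that the choice did not use directly. These were between resistant and WT cells of ARH-77, which did not enter the choice, and between the resistant L363 groups, which entered it through L363 WT.

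RNA was sequenced from RPMI-8226, AMO1 and L363, which are myeloma lines, and from the B-lymphoblastoid line ARH-77, to ask how gene expression differs once cells have become resistant to proteasome inhibitors. WT cells of the 4 lines have no drug in their labels. BtzR cells of the 4 lines were kept in 90 nM bortezomib, a reversible proteasome inhibitor, and CfzR cells of AMO1 and L363 in 90 nM carfilzomib, an irreversible one. The resistant cells had been evolved in culture, and each group held 2 libraries that the paper describes as biological replicates of 1 line, so that p-values measure the spread between such replicates and not between patients. Resistance, growth in drug and the history of each selected line cannot be told apart in this design. In bulk RNA, fewer cells expressing a gene and less RNA per cell likewise cannot be told apart.

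Levels are FPKM, fragments mapped to a gene scaled by the length of its transcript and the depth of the library, and their sum ranged from 457317 to 494850 per library, with 10455 to 11023 genes at 1 FPKM or more. The number of reads is unknown, so values carry no counting interval, and 0 means listed at 0. The B-cell markers MS4A1, CD22 and PAX5 reached no more than 0.23, 0.45 and 0.14 FPKM in the 16 myeloma libraries against at least 57.67, 168.8 and 33.55 FPKM in ARH-77, while CD79B overlapped, with 0.09 to 52.48 FPKM in myeloma and 32.27 to 40.38 FPKM in ARH-77. Of 8 plasma-cell markers, SDC1 (38.24 FPKM or more), PRDM1 (11.33 or more) and MZB1 (345.72 or more) were higher in all myeloma libraries than in ARH-77 (9.9, 1.67 and 94.7 FPKM at most), and the other 5 (TNFRSF17, IRF4, XBP1, CD38 and SLAMF7) overlapped. The libraries labelled AMO1 CfzR correlated with the L363 libraries at a Pearson r of 0.986 to 0.992 and with the other AMO1 libraries at 0.878 to 0.883, across genes. Their values for the 6 genes are therefore also set beside L363 WT.

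The proteasome degrades ubiquitin-tagged proteins, and plasma cells, which secrete antibody in bulk, depend on it heavily, which is why its inhibitors are used against myeloma. The 6 genes belong to unrelated systems. BTBD3 is a BTB/POZ-domain protein known for orienting dendrites in cortical neurons, and NRIP1, also called RIP140, is a corepressor that binds ligand-bound nuclear receptors. ALOX5AP, also called FLAP, is the membrane protein that presents arachidonic acid to 5-lipoxygenase at the start of leukotriene synthesis. DNAJC12 is a J-domain co-chaperone of the HSP70 system for the aromatic amino acid hydroxylases, APBA1, also called X11 alpha or MINT1, is a neuronal adaptor that binds the amyloid precursor protein and the vesicle priming machinery, and PBDC1 is an X-linked gene that is little characterized.

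The start-site windows of the genes are shown first. The genes lie on separate chromosomes, and each was chosen for moving in 1 direction in resistant myeloma, some upwards and others downwards. RefSeq windows of 250 bases before to 50 bases after a transcription start (GRCh38.p14) were matched for 5 of the 6 genes, with 10 windows in all, and 1 window per gene is given 5′ to 3′ on the strand of the gene. They lie at chr20:11890567-11890866 (plus strand, BTBD3), chr21:15065887-15066186 (minus strand, NRIP1), chr13:30713235-30713534 (plus strand, ALOX5AP), chrX:76172812-76173111 (plus strand, PBDC1) and chr10:67838139-67838438 (minus strand, DNAJC12). APBA1 was the gene with no match. Capitals mark letters that match a searched motif on either strand.
BTBD3: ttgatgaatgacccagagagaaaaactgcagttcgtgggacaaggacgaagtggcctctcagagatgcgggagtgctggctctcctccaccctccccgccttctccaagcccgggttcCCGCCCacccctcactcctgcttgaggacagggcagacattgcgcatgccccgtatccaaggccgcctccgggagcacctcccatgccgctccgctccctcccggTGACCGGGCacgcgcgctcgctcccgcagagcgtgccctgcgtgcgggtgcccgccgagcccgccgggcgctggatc
NRIP1: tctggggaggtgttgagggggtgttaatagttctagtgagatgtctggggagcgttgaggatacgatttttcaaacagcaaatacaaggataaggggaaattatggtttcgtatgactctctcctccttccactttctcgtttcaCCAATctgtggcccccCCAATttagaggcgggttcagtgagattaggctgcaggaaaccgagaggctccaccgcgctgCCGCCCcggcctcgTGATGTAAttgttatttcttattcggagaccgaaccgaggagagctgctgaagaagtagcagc
ALOX5AP: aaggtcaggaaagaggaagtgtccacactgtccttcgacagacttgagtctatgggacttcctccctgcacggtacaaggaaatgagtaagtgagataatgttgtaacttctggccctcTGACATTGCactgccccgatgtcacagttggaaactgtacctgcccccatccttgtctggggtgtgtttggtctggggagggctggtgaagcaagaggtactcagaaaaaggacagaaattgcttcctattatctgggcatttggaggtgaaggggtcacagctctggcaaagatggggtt
PBDC1: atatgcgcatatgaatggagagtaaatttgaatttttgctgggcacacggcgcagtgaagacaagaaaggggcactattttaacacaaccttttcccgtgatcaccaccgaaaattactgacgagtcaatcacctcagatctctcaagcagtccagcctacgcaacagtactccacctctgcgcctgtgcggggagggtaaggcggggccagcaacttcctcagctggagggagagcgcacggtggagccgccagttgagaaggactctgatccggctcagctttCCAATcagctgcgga
DNAJC12: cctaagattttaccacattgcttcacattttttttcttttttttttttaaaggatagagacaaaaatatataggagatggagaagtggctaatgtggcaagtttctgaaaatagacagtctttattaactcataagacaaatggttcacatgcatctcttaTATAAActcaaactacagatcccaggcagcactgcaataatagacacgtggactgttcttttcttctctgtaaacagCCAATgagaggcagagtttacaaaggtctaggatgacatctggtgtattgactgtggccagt

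The motifs searched were TGACNNNGC (the core of the antioxidant response element), TGATGNAA (an element of C/EBP and ATF factors), GAANNTTC (paired heat shock units), TGACGTCA (the cyclic AMP response element), CCAAT (the box bound by NF-Y), GGGCGG (the GC box bound by SP1) and TATAAA (the TATA box). They were held by 13.3%, 3.62%, 6.77%, 1.85%, 34.6%, 45.0% and 11.5% of all 35116 windows, in that order. The BTBD3 window above held TGACCGGGC at position -27 from the start, and the ALOX5AP window held TGACATTGC at -131. The same core also matched in a further BTBD3 window (TGACCGGGC at -214) and a further NRIP1 window (TGACGGAGC at -191), neither printed here. TGATGTAA was found at -13 in the NRIP1 window, together with both of its CCAAT matches further out. The DNAJC12 window was the poorest in G and C (36.3%, against a median of 58.7% over all windows) and held TATAAA at -89 and CCAAT at -12, while the PBDC1 window held a CCAAT after its start. No motif was present in all 5 windows, and these matches are descriptions of letters and not sites of binding.

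BTBD3 was higher in every resistant myeloma group. In AMO1 WT it was at 0.17 and 0.19 FPKM, in AMO1 BtzR at 5.12 and 2.27 FPKM, and in the libraries labelled AMO1 CfzR at 10.69 and 10.11 FPKM. In L363 it went from 2.51 and 2.27 FPKM in WT to 5.69 and 6.24 FPKM in BtzR and to 9.02 and 9.53 FPKM in CfzR. In RPMI-8226 it went from 1.01 and 1.58 FPKM to 13.99 and 7.56 FPKM in BtzR. The resistant libraries of each line thus lay above its WT libraries without overlap, although the AMO1 BtzR replicates, like those of RPMI-8226 BtzR, stood well apart from each other. The ratio of group means was 20.5 in AMO1 BtzR, 57.8 in AMO1 CfzR (4.35 against L363 WT), 8.32 in RPMI-8226 BtzR, 3.88 in L363 CfzR and 2.5 in L363 BtzR. The WT means ran from 0.18 FPKM in AMO1 to 2.39 FPKM in L363. The resistant means ran from 3.7 ± 2.02 FPKM in AMO1 BtzR to 10.8 ± 4.55 FPKM in RPMI-8226 BtzR (mean ± SD, n = 2). RPMI-8226 BtzR overlapped AMO1 CfzR at the top of the order, and AMO1 BtzR overlapped ARH-77 WT above it and L363 WT below it.

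NRIP1 was the other gene that was higher. It was near the bottom of the scale in all WT myeloma lines, at 0.19 and 0.14 FPKM in AMO1, 0.4 and 0.25 FPKM in L363 and 0.17 and 0.16 FPKM in RPMI-8226. The BtzR libraries read 2.04 and 1.24 FPKM in AMO1, 1.11 and 0.86 FPKM in L363 and 13.25 and 11.24 FPKM in RPMI-8226. The CfzR libraries read 0.61 and 0.51 FPKM in AMO1 and 2.26 and 2.39 FPKM in L363. RPMI-8226 BtzR stood far above the other resistant myeloma groups, with a mean 74.2 times that of its WT, and it was the only one to pass ARH-77 WT, which had 7.33 and 5.83 FPKM. The ratio of means was 9.94 in AMO1 BtzR, 3.03 in L363 BtzR, 7.15 in L363 CfzR and 3.39 in AMO1 CfzR, or 1.72 when the latter was set against L363 WT. Group order ran from RPMI-8226 BtzR through both ARH-77 groups to the other resistant groups, with AMO1 WT and RPMI-8226 WT overlapping at the bottom.

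**Figure D1:**
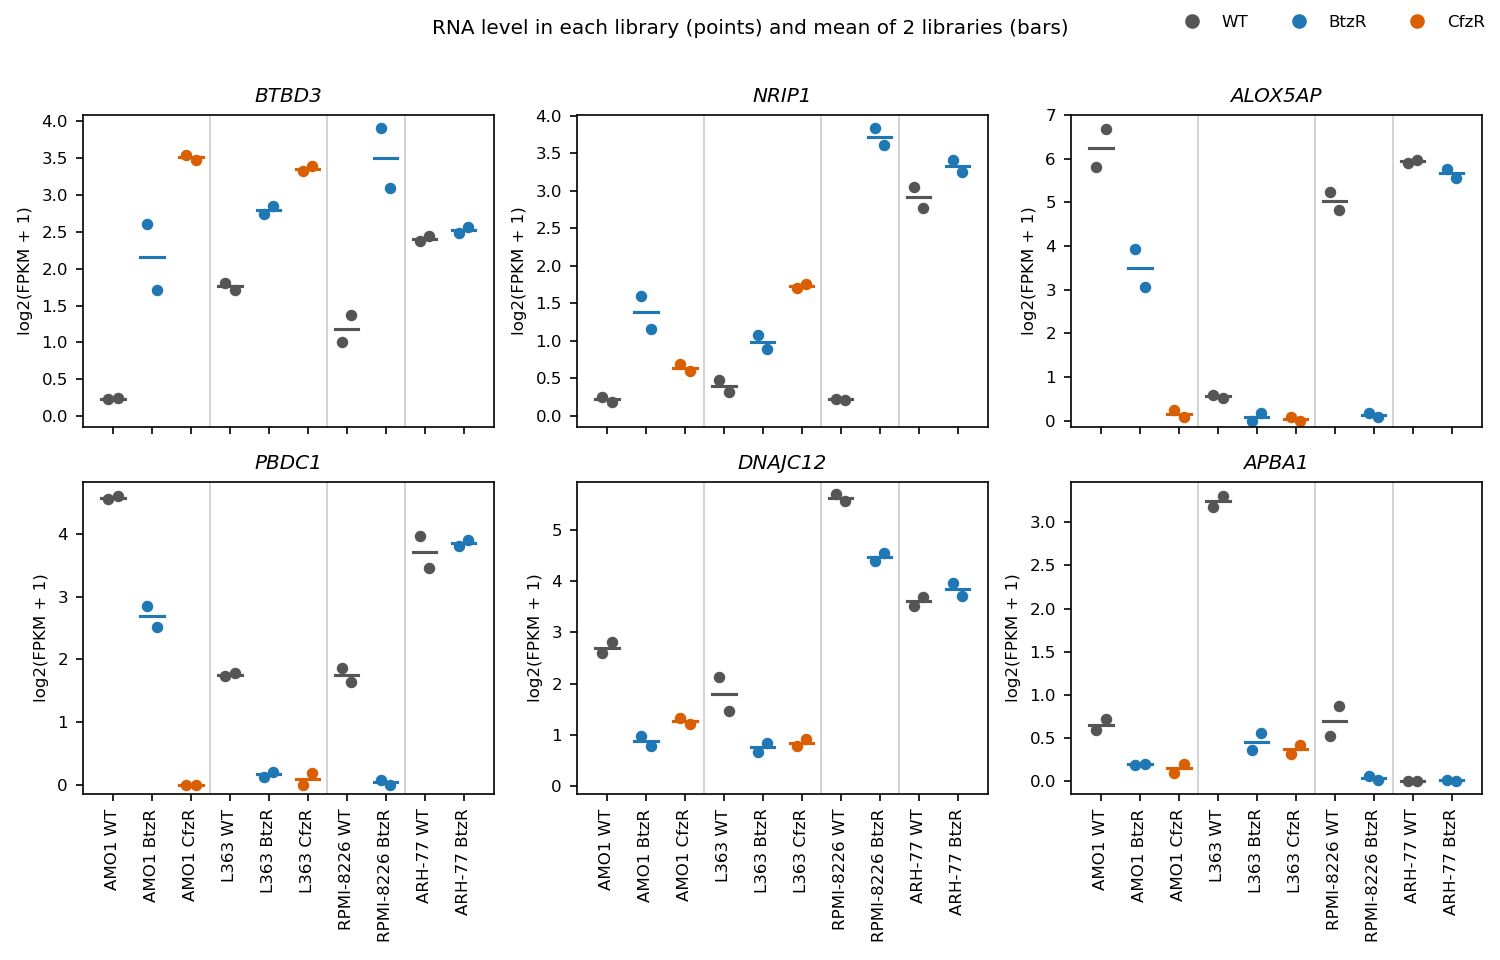
RNA level of each gene in the 20 libraries, as log2(FPKM + 1) on the vertical axis with a separate range per panel, by group on the horizontal axis. Points are libraries and bars are means of 2; in each myeloma line the resistant points lie above WT for BTBD3 and NRIP1 and below WT for the other 4 genes, and in ARH-77 the shifts are small.

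ALOX5AP was lower in every resistant myeloma group, from starting levels that differed by line. AMO1 WT had 55.09 and 101.12 FPKM, AMO1 BtzR 14.38 and 7.41 FPKM, and the libraries labelled AMO1 CfzR 0.18 and 0.06 FPKM. RPMI-8226 WT had 36.9 and 27.52 FPKM and RPMI-8226 BtzR 0.13 and 0.06 FPKM. L363 was already low, with 0.51 and 0.44 FPKM in WT, 0 and 0.13 FPKM in BtzR and 0.06 and 0 FPKM in CfzR. The gene therefore went from abundant to near 0 in RPMI-8226, stayed well above 0 in AMO1 BtzR, and had little room to go lower in L363. WT means were 7.17 times BtzR means in AMO1 and 339 times in RPMI-8226. The gap of 651 times for AMO1 CfzR rests on AMO1 WT, and against L363 WT the same libraries were lower by a factor of 3.96. ARH-77 WT (60.4 ± 2.16 FPKM) overlapped AMO1 WT at the top, and the 4 groups with the lowest levels, all resistant myeloma, overlapped from 1 to the next.

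The partners of ALOX5AP in leukotriene synthesis were looked at by their role, after their values were seen. ALOX5, the lipoxygenase that ALOX5AP serves, was at 0.6 FPKM or less in every myeloma library except an RPMI-8226 BtzR library at 1.06 FPKM, against 1.05 to 2.99 FPKM in ARH-77. AMO1 WT, the group with the most ALOX5AP, had 0.04 and 0.02 FPKM of ALOX5. LTC4S, which makes leukotriene C4, did not pass the filter on low values and was at most 0.5 FPKM in any library. LTA4H, the hydrolase that makes leukotriene B4, was at 28.63 to 80.83 FPKM in all myeloma libraries. On the per-length FPKM scale the RNA of the carrier was thus abundant in AMO1 WT and RPMI-8226 WT, where the RNA of its enzyme was barely listed. These are RNA levels and not protein levels.

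PBDC1 was lower in every resistant myeloma group and reached 0 in some. AMO1 WT had 22.56 and 23.43 FPKM, AMO1 BtzR 6.21 and 4.75 FPKM, and both libraries labelled AMO1 CfzR were listed at 0. L363 read 2.31 and 2.44 FPKM in WT, 0.09 and 0.15 FPKM in BtzR, and 0 and 0.13 FPKM in CfzR. RPMI-8226 read 2.63 and 2.1 FPKM in WT and 0.05 and 0 FPKM in BtzR. L363 WT and RPMI-8226 WT overlapped, as did the 4 resistant groups of lowest level. WT means were 4.2 times the BtzR mean in AMO1, 19.8 times in L363 and 94.6 times in RPMI-8226, and 36.5 times the CfzR mean in L363. No fold is given for AMO1 CfzR, which is listed at 0 whichever WT line is set beside it.

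DNAJC12 was lower in every resistant myeloma group, from a wide range of starting levels and by factors that differed between lines. RPMI-8226 WT had 50.42 and 45.92 FPKM and its BtzR cells 19.86 and 22.35 FPKM. AMO1 WT had 5.01 and 6.04 FPKM, AMO1 BtzR 0.98 and 0.71 FPKM, and AMO1 CfzR 1.5 and 1.32 FPKM. L363 WT had 3.38 and 1.76 FPKM, L363 BtzR 0.59 and 0.79 FPKM, and L363 CfzR 0.72 and 0.89 FPKM. Resistant RPMI-8226 cells kept more DNAJC12 than the WT cells of any other line, and the 3 lowest groups, AMO1 BtzR, L363 CfzR and L363 BtzR, overlapped in turn. WT means were 2.28 times the resistant mean in RPMI-8226, 6.54 times in AMO1 BtzR, 3.92 times in AMO1 CfzR, 3.72 times in L363 BtzR and 3.19 times in L363 CfzR. Against L363 WT the libraries labelled AMO1 CfzR were lower by a factor of 1.82. TPH2 and TPH1, tryptophan hydroxylases of the family that DNAJC12 assists, were at most 0.02 and 0.93 FPKM in any library.

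APBA1 was a gene of L363 WT cells. It had 8.06 and 8.9 FPKM there, against 0.28 and 0.47 FPKM in L363 BtzR and 0.24 and 0.34 FPKM in L363 CfzR. AMO1 went from 0.51 and 0.64 FPKM in WT to 0.14 and 0.15 FPKM in BtzR and 0.07 and 0.15 FPKM in CfzR, and RPMI-8226 from 0.44 and 0.83 FPKM to 0.04 and 0.01 FPKM in BtzR. L363 WT was the only group at 1 FPKM or more, so APBA1 passed the filter through it alone. WT means were 22.6 times the BtzR mean and 29.2 times the CfzR mean in L363, and the libraries labelled AMO1 CfzR were lower than L363 WT by a factor of 77.1. AMO1 and RPMI-8226 moved the same way at levels under 1 FPKM.

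The values that chose the genes depend on the pseudocount, the amount added to each FPKM before the logarithm. Calls were made in limma where the adjusted p (Benjamini-Hochberg) was under 0.05 and the log2-fold change was 1 or more in size, and genes had to reach a group mean of 1 FPKM in some group, which 13089 genes did, including all 6. With a pseudocount of 1 FPKM, 5 genes were called in 1 direction in 5 of 5 comparisons (0.0382% of those tested), among them BTBD3 and PBDC1. With 0.1 FPKM there were 18 (0.138%), and all 6 were among them, and with 0.01 FPKM there were 21 (0.160%), among them all except PBDC1. With 1 FPKM the smallest change of BTBD3 was 1.04 in L363 BtzR, just inside the limit, and that of DNAJC12 was 0.95 in L363 CfzR, just outside it. The smallest change in size of ALOX5AP was 0.47, of APBA1 0.46 and of NRIP1 0.42, each in groups at low FPKM. Without the AMO1 CfzR comparison, BTBD3 and PBDC1 were called in 4 of 4, which their calls in 5 of 5 already implied.

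At 1 FPKM, the genes called in AMO1 BtzR were BTBD3 and NRIP1 as higher (4.61% of all genes were) and ALOX5AP, PBDC1 and DNAJC12 as lower (4.57%). In AMO1 CfzR they were BTBD3 as higher (7.88%) and the same 3 as lower (9.21%), and against L363 WT the log2-fold change of these libraries was 1.75 for BTBD3, -0.4 for ALOX5AP, -1.75 for PBDC1 and -0.53 for DNAJC12. In L363 BtzR they were BTBD3 (1.02%) against PBDC1, DNAJC12 and APBA1 (1.05%). L363 CfzR had BTBD3 and NRIP1 (1.11%) against PBDC1 and APBA1 (0.825%). In RPMI-8226 BtzR they were BTBD3 and NRIP1 (5.91%) against ALOX5AP, PBDC1 and DNAJC12 (7.92%). For all 6 genes, both resistant libraries lay beyond both WT libraries in 5 of 5 comparisons, as did 2.19% of tested genes upwards and 1.86% downwards. These counts follow from the choice of the genes and nothing is read from them. Both AMO1 comparisons share the AMO1 WT libraries, and both L363 comparisons share those of L363 WT.

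**Figure D2:**
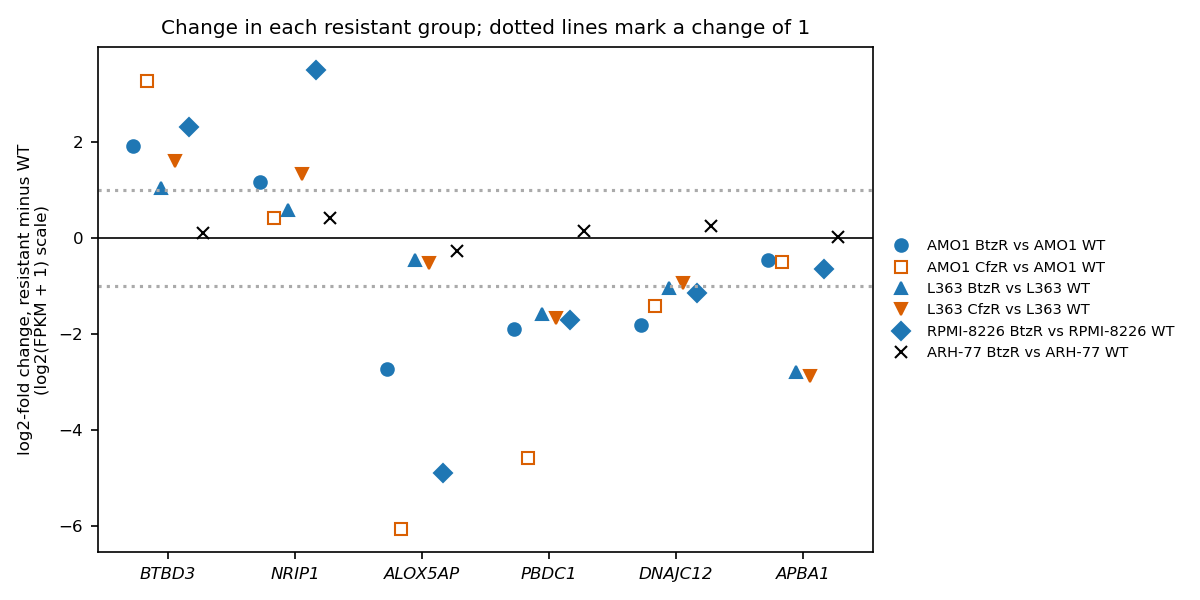
Change of each gene in 6 resistant groups against the WT cells of its line, as a difference of mean log2(FPKM + 1) on the vertical axis. BTBD3 and NRIP1 lie above 0 and the other 4 genes below 0 in the 5 myeloma groups, while the crosses of ARH-77 BtzR lie between -0.27 and 0.42.

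ARH-77 BtzR against ARH-77 WT was the resistance comparison that did not enter the choice, and none of the 6 genes was called there by limma (1.60% of all genes were, 210 in number). NRIP1 alone had an unadjusted p under 0.05 (3494 of all 13089 genes did). NRIP1 was at 7.33 and 5.83 FPKM in WT and 9.65 and 8.52 FPKM in BtzR. Both resistant libraries were above both WT libraries, the same direction as in myeloma, and the log2-fold change was 0.42 (95% interval 0.12 to 0.71, adjusted p = 0.063 in limma). BTBD3 was at 4.2 and 4.43 FPKM in WT and 4.6 and 4.91 FPKM in BtzR, a log2-fold change of 0.11 (-0.42 to 0.65, adjusted p = 0.86 in limma). Its libraries did not overlap, but the shift was within the spread that the fit estimated from the libraries of all groups. How many of all genes had no overlap in ARH-77 was not counted, so nothing is read from the lack of overlap.

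The 4 genes that were lower in resistant myeloma did not pass the test in ARH-77 either. With the pseudocount of 1 FPKM, the intervals of all 6 genes lay inside a change of 1 in either direction. With 0.1 and 0.01 FPKM the standard errors were 0.42 and 1.01 for ALOX5AP, 0.32 and 0.92 for PBDC1 and 0.28 and 0.51 for APBA1. The intervals are therefore no limit on the change at smaller pseudocounts. ALOX5AP went from 58.89 and 61.94 FPKM to 53.21 and 46.51 FPKM, with a log2-fold change of -0.27 (-0.83 to 0.28, adjusted p = 0.57 in limma). PBDC1 went from 14.65 and 10.03 FPKM to 13.01 and 14.01 FPKM, with overlapping libraries and a log2-fold change of 0.14 (-0.17 to 0.45, adjusted p = 0.61 in limma). The direction of PBDC1 rested on 1 library, since the change was -0.11 without ARH-77 WT replicate 2. DNAJC12 went from 10.43 and 11.94 FPKM to 14.63 and 12.12 FPKM, with both resistant libraries above both WT libraries and a log2-fold change of 0.24 (-0.14 to 0.61, adjusted p = 0.44 in limma). APBA1 was listed at 0 in all ARH-77 libraries except BtzR replicate 1, which had 0.01 FPKM, so that it could not go lower. The intervals rest on a spread shared by all groups, which differs from that of ARH-77 alone. Standard errors in this fit and in limma on the 4 ARH-77 libraries were 0.25 and 0.11 for BTBD3 and 0.26 and 0.1 for ALOX5AP. They were 0.18 and 0.15 for DNAJC12 and 0.1 and 0.02 for APBA1. For NRIP1 (0.14 and 0.16) and PBDC1 (0.15 and 0.21) the ARH-77 libraries alone gave the larger one. The fit of the 4 libraries called 0 genes. Whether the effect in ARH-77 differed from that in myeloma was not tested, since the myeloma values chose the genes.

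Carfilzomib-resistant and bortezomib-resistant L363 cells, grown at the same 90 nM, were compared to ask whether the genes differed by drug, and none was called (1.47% of all genes were, 193). Both groups entered the choice through their difference from L363 WT, and the difference between them did not. The choice still held both groups to 1 side of L363 WT, which can limit how far they differ. The intervals and p-values given for this comparison do not allow for that. At an unadjusted p under 0.05 there were 2, against 1938 of all genes. NRIP1 was at 2.26 and 2.39 FPKM in CfzR and 1.11 and 0.86 FPKM in BtzR. It was higher in CfzR by a ratio of 2.36 and a log2-fold change of 0.75 (0.45 to 1.04, adjusted p = 0.0032 in limma), which passed on p and missed the fold limit. With a pseudocount of 0.1 FPKM the change was 1.17 (adjusted p = 0.0059 in limma) and NRIP1 was called. In a fit of the compared libraries only, the change of 0.75 no longer passed on p (adjusted p = 0.072 in limma). Without L363 BtzR replicate 2 the change of NRIP1 was 0.66. BTBD3 was at 9.02 and 9.53 FPKM in CfzR and 5.69 and 6.24 FPKM in BtzR, with a log2-fold change of 0.56 (0.02 to 1.1, adjusted p = 0.3 in limma). Libraries of the 2 groups did not overlap for NRIP1 or BTBD3, and overlapped for the other 4 genes. The share of all genes without overlap was not counted here, so nothing is read from this.

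Among those 4, the log2-fold change between L363 CfzR and BtzR was -0.05 for ALOX5AP (-0.6 to 0.51), -0.07 for PBDC1 (-0.39 to 0.24), 0.1 for DNAJC12 (-0.28 to 0.47) and -0.09 for APBA1 (-0.31 to 0.13). Adjusted p in limma ranged from 0.86 to 1.0, which does not show that the drugs had the same effect. ALOX5AP, PBDC1 and APBA1 were under 0.5 FPKM in both groups, where a difference is compressed by the pseudocount.

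**Figure D3:**
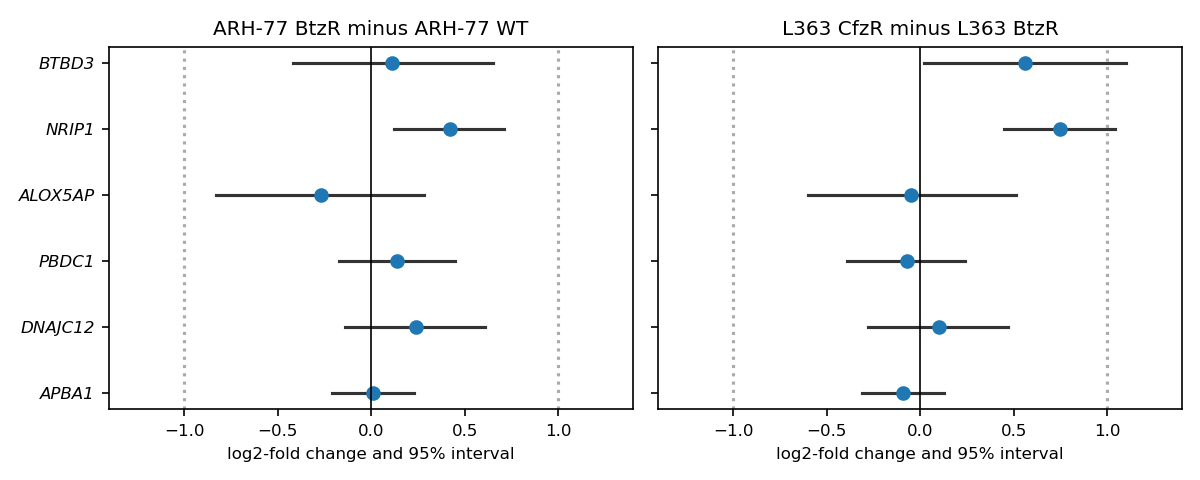
Log2-fold change on the horizontal axis, with its 95% interval from limma, for ARH-77 BtzR minus WT (left) and L363 CfzR minus BtzR (right). In ARH-77 only the NRIP1 interval lies wholly on 1 side of 0, and in L363 those of NRIP1 and BTBD3 do.

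The WT myeloma lines were each set beside ARH-77 WT, and these 3 comparisons share the ARH-77 WT libraries. The WT myeloma libraries also entered the choice of the genes. That choice favours low WT levels for BTBD3 and NRIP1 and high ones for the other 4. The differences are therefore a description, and no test is read from them. The NRIP1 mean of ARH-77 WT was 39.9 times that of AMO1 WT, 20.2 times that of L363 WT and 39.9 times that of RPMI-8226 WT, with log2-fold changes of -2.7, -2.51 and -2.69. For BTBD3 the log2-fold change was -2.17 in AMO1 WT, -1.22 in RPMI-8226 WT and -0.65 in L363 WT. All WT myeloma libraries were below both ARH-77 WT libraries for NRIP1 and BTBD3.

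ALOX5AP, PBDC1 and DNAJC12 lay on different sides of ARH-77 WT depending on the line. ALOX5AP had a log2-fold change of -5.38 in L363 WT, -0.9 in RPMI-8226 WT and 0.3 in AMO1 WT, whose libraries overlapped those of ARH-77 WT. PBDC1 had -1.96 in L363 WT, -1.97 in RPMI-8226 WT and 0.87 in AMO1 WT. DNAJC12 had -1.81 in L363 WT, -0.9 in AMO1 WT and 2.01 in RPMI-8226 WT. APBA1 was listed at 0 in both ARH-77 WT libraries, so that all WT myeloma libraries lay above them, with log2-fold changes of 0.65 in AMO1 WT, 3.24 in L363 WT and 0.7 in RPMI-8226 WT. The L363 WT value is the one through which APBA1 passed the filter.

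In limma 2 of the 6 genes met both limits in AMO1 WT (24.3% of all genes did), 5 in L363 WT (25.2%), with APBA1 among them, and 4 in RPMI-8226 WT (28.4%), and nothing is read from these counts. With the smaller pseudocounts DNAJC12 and APBA1 met them too in AMO1 WT, and APBA1 in RPMI-8226 WT. Single libraries decided the side of the fold limit for 3 values just under it, and the direction of another. Without AMO1 WT replicate 2 the change of DNAJC12 was -1.02 and that of ALOX5AP -0.13, without RPMI-8226 WT replicate 1 ALOX5AP was at -1.11, and without ARH-77 WT replicate 1 PBDC1 was at 1.12 in AMO1 WT.

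Genes of the pathways around each member were counted from lists of related genes, over the 6 resistance comparisons. Shares called among all genes were those given above and, for ARH-77 BtzR, 0.955% higher and 0.649% lower. The median log2-fold change of all tested genes lay between -0.04 and 0.05 in each comparison, and 32.3% of all tested genes were called in 1 or more of the 6. In a fit without both AMO1 CfzR libraries, chosen after the data were seen, 22.9% were called in 1 or more of the other 5. For leukotriene synthesis and signalling, 14 of 20 genes were tested and 7 were called in 1 or more comparisons. The counts were 1 higher and 1 lower in AMO1 BtzR, 2 and 1 in AMO1 CfzR, 1 and 4 in RPMI-8226 BtzR, and 0 in both L363 groups and ARH-77, with medians from -0.01 to 0.23.

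CYSLTR1, a receptor for cysteinyl leukotrienes, moved with ALOX5AP in AMO1 and RPMI-8226. It was at 3.13 and 5.27 FPKM in AMO1 WT and 0.06 and 0.04 FPKM in AMO1 BtzR, a log2-fold change of -2.28 (adjusted p = 1.1e-08 in limma). It was also called in AMO1 CfzR (-2.15, adjusted p = 6e-09 in limma), at 0.1 and 0.2 FPKM beside 0.39 and 0.45 FPKM in L363 WT. In RPMI-8226 it fell from 20.78 and 20.57 FPKM to 0 and 0.04 FPKM (-4.41, adjusted p = 2e-12 in limma). In ARH-77 it was at 7.65 and 7.27 FPKM in WT and 14.41 and 13.49 FPKM in BtzR, a log2-fold change of 0.82. MGST2, which can also make leukotriene C4, and PTGS1, the constitutive cyclooxygenase, fell in RPMI-8226 BtzR (log2-fold change -3.33 and -2.56, adjusted p = 1e-12 and 2.4e-12 in limma). PLA2G4A, the phospholipase that releases arachidonic acid, was called higher in AMO1 CfzR (5.03), where the libraries had 30.81 and 32.78 FPKM. AMO1 WT was listed at 0 for it and L363 WT had 21.85 and 22.47 FPKM, so that this call rests on the labelled parent.

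For nuclear receptors and their cofactors, the partners of NRIP1, 22 of 26 genes were tested and 11 were called in 1 or more comparisons, or 6 in the fit without both AMO1 CfzR libraries. There were 1 higher and 2 lower in AMO1 BtzR, 2 and 4 in AMO1 CfzR, 1 and 3 in RPMI-8226 BtzR, and 0 in L363 BtzR, L363 CfzR and ARH-77 BtzR, with medians from -0.09 to 0.06. CTBP2, a corepressor that NRIP1 recruits, was at 0.64 and 0.47 FPKM in RPMI-8226 WT and 11.69 and 13.33 FPKM in BtzR (3.12, adjusted p = 1.6e-09 in limma), the group in which NRIP1 was highest. In the other 5 comparisons the change of CTBP2 ran from -0.3 to 0.61. VDR, the vitamin D receptor, fell in AMO1 BtzR (-1.71), AMO1 CfzR (-1.83) and RPMI-8226 BtzR (-2.03), with adjusted p of 5.8e-08, 8.7e-09 and 3.2e-09 in limma. AMO1 CfzR had 5.03 and 5.27 FPKM of VDR and L363 WT 6.52 and 6.63 FPKM. AHR, the aryl hydrocarbon receptor, fell in RPMI-8226 BtzR (-1.81, adjusted p = 1e-10 in limma), and NR3C1, the glucocorticoid receptor, was called higher in AMO1 CfzR (2.02), whose 23.37 and 19.93 FPKM lay near the 21.63 and 22.3 FPKM of L363 WT.

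Of the other DNAJC proteins, 28 of 29 were tested and 6 were called in 1 or more comparisons, or 3 in the fit without both AMO1 CfzR libraries. None was called in AMO1 BtzR, L363 BtzR, L363 CfzR or ARH-77 BtzR, 2 were higher and 2 lower in AMO1 CfzR, and 1 was higher and 2 lower in RPMI-8226 BtzR, with medians from -0.08 to 0.07. DNAJC4 fell in RPMI-8226 BtzR (-1.07, adjusted p = 0.00016 in limma) and was called higher in AMO1 CfzR (2.2, adjusted p = 7.6e-08), whose 44.72 and 46.36 FPKM lay above the 9.16 and 9.06 FPKM of AMO1 WT and between the 47.66 and 39.57 FPKM of L363 WT. DNAJC15, a mitochondrial J-protein, was listed at 0 in both AMO1 CfzR libraries against 5.8 and 7.37 FPKM in AMO1 WT, and L363 WT was listed at 0 too. DNAJC6, the auxilin of clathrin uncoating, had a change of -1.55 in AMO1 CfzR (adjusted p = 1.1e-08 in limma), whose 2.22 and 2.06 FPKM lay above the 1.9 and 1.66 FPKM of L363 WT. Among the hydroxylases that DNAJC12 serves and the enzymes of their cofactor, 5 of 8 genes in the data were tested and 2 were called. PCBD1, which recycles the cofactor, rose in L363 BtzR from 4.06 and 3.61 FPKM to 11.19 and 10.56 FPKM (1.3, adjusted p = 7.9e-06 in limma) and fell in ARH-77 BtzR from 9.8 and 12.15 FPKM to 1.74 and 2.17 FPKM (-2.02, adjusted p = 1.4e-07), a call that a fit of the ARH-77 libraries alone did not make. PTS, which makes a precursor of it, fell in AMO1 BtzR (-1.11, adjusted p = 4.3e-05 in limma). Medians of these 5 genes ran from -0.18 to 0.69.

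Among BTB relatives of BTBD3 and the ubiquitin ligase scaffold CUL3, 8 of 11 genes were tested and 3 were called. These were 1 higher in AMO1 BtzR and 1 higher and 2 lower in RPMI-8226 BtzR, with medians from -0.21 to 0.31. BTBD6 went both ways, higher in AMO1 BtzR (1.12, adjusted p = 8.3e-05 in limma) and lower in RPMI-8226 BtzR (-2.3, adjusted p = 3.4e-08). BTBD7 was higher and BTBD19 lower in RPMI-8226 BtzR (1.11 and -2.4, adjusted p = 4.4e-05 and 1.8e-10 in limma). Of the partners and paralogs of APBA1, 14 of 15 were tested and 7 were called, with 3 higher and 1 lower in AMO1 BtzR, 2 higher in AMO1 CfzR, 3 higher and 1 lower in RPMI-8226 BtzR, 1 higher in L363 CfzR, and medians from -0.04 to 0.14. APP, the amyloid precursor protein that APBA1 binds, rose in L363 CfzR from 0.03 and 0.03 FPKM to 3.34 and 4.02 FPKM (2.18, adjusted p = 1.3e-09 in limma) and stayed at 0.07 and 0.11 FPKM in L363 BtzR. In RPMI-8226 BtzR it fell by 1.1 on the log2 scale (adjusted p = 1.5e-07 in limma). APLP1, a homolog of APP, rose in AMO1 BtzR (2.05, adjusted p = 1.2e-07 in limma), as did LIN7A of the adaptor complex (2.25, adjusted p = 6.5e-10). APLP1 was also called in AMO1 CfzR (1.99), at 8.29 and 8.73 FPKM beside 4.06 and 2.67 FPKM in L363 WT. The paralog APBA2 was at 54.17 to 73.48 FPKM in all L363 libraries, at 64.27 and 64.24 FPKM in AMO1 CfzR and at no more than 0.03 FPKM in AMO1 WT and BtzR.

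Neighbouring genes were followed to see whether a member moved with its chromosome segment. The 5 nearest protein-coding genes on each side gave 60 neighbours, of which 44 were tested and 7 were called in any of the 6 comparisons, with medians from -0.02 to 0.08. There was 1 lower gene in AMO1 BtzR (UPRT, next but one to PBDC1, -1.7, adjusted p = 3.8e-08 in limma) and 1 lower in AMO1 CfzR (KLF9, near APBA1, -1.86, adjusted p = 5.6e-06), where KLF9 was at 0.64 and 0.52 FPKM beside 0.49 and 0.78 FPKM in L363 WT. In RPMI-8226 BtzR 2 were higher and 3 lower, and none was called in the L363 groups or ARH-77. SPTLC3, next to BTBD3, fell there by 1.52 on the log2 scale, opposite to BTBD3, and LRRTM3, next to DNAJC12, rose by 2.14, opposite to DNAJC12 (adjusted p = 6.2e-11 and 1.7e-11 in limma). HSPA13 and CXADR, on either side of NRIP1, changed by -1.04 and -1.13 where NRIP1 was higher by 3.5. UPRT apart, no tested neighbour of PBDC1 was called, and MAGEE1, the nearest of them, had a change of -0.49 in AMO1 CfzR where that of PBDC1 was -4.58.

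JAG1, a ligand of Notch receptors that lies next to BTBD3, is given as an exception chosen after its values were seen. Its log2-fold change was 0.17 in AMO1 BtzR, 0.91 in AMO1 CfzR, 0.54 in L363 BtzR, 0.76 in L363 CfzR, 0.71 in RPMI-8226 BtzR and 0 in ARH-77 BtzR. It was not called in any comparison. L363 had 3.73 and 3.51 FPKM in WT, 6.21 and 5.26 FPKM in BtzR and 7.58 and 6.09 FPKM in CfzR. The libraries labelled AMO1 CfzR had 5.0 and 4.3 FPKM of JAG1. These values lay nearer to those of L363 WT than to the 2.24 and 1.78 FPKM of AMO1 WT.

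**Figure D4:**
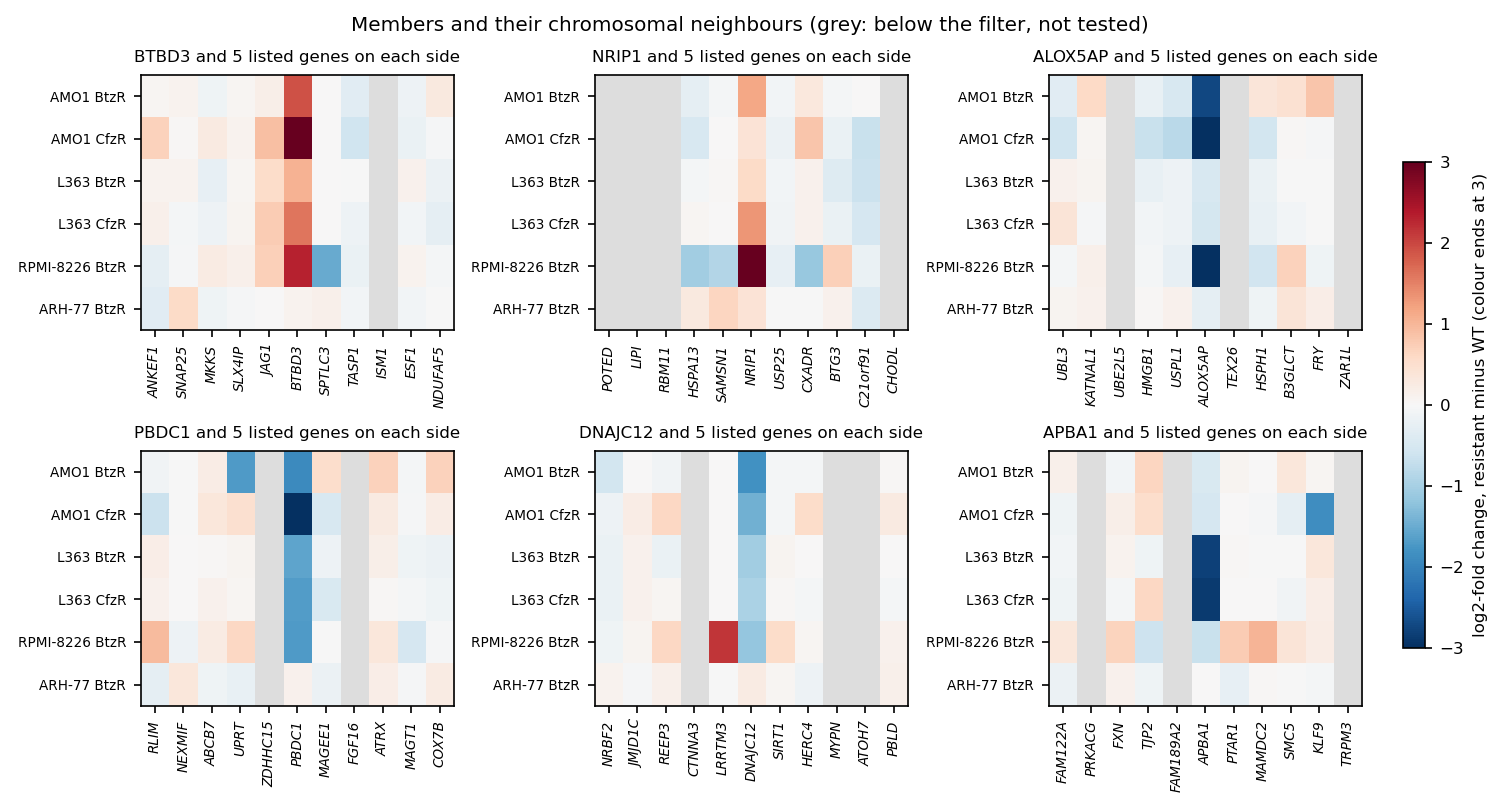
Log2-fold change (colour, ending at 3 in each direction) of each member, in the middle column, and of up to 5 listed protein-coding genes on each side in gene order, in 6 resistant groups. The middle columns are coloured in the myeloma rows and most neighbours are near white; JAG1 beside BTBD3 is pale red in 4 rows.

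Across the 20 libraries the closest match to ALOX5AP among the other members was PBDC1, with a Pearson r of 0.915 for log2(FPKM + 1). BTBD3 ran against PBDC1 (-0.693) and ALOX5AP (-0.662), and NRIP1 had r of 0.06 with ALOX5AP and 0.048 with PBDC1. These values describe 20 libraries that share lines and WT groups and were picked in part for this pattern. Among all tested genes, those most like ALOX5AP were PHACTR1 (r = 0.98) and PPFIBP2 (0.979), and those most like PBDC1 were ARHGAP31 (0.968) and NAGK (0.948). PHACTR1, a regulator of actin and protein phosphatase 1, was at 4.48 and 7.36 FPKM in AMO1 WT and at 0.04 and 0.07 FPKM in AMO1 CfzR, beside 0.02 and 0.09 FPKM in L363 WT. ARHGAP31, a GTPase activator for Rac and Cdc42, was at 5.23 and 5.15 FPKM in AMO1 WT and at 2.02 and 2.4 FPKM in AMO1 BtzR. Both shared with their member high levels in AMO1 WT and ARH-77.

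**Figure D5:**
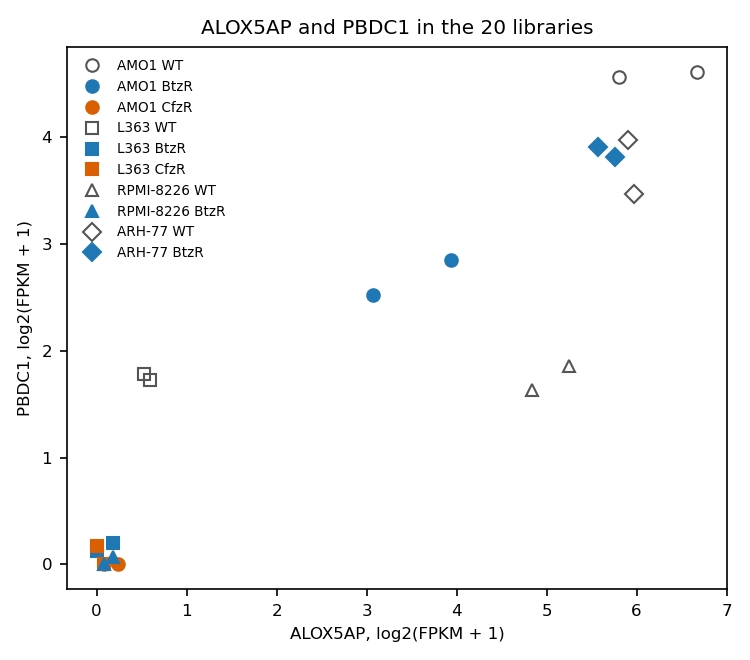
Level of ALOX5AP (horizontal) and PBDC1 (vertical), both as log2(FPKM + 1), in the 20 libraries; open marks are WT and filled marks resistant. Resistant L363, RPMI-8226 and AMO1 CfzR libraries gather at the lower left, ARH-77 and AMO1 WT at the upper right, AMO1 BtzR between them, RPMI-8226 WT is high on ALOX5AP with a middling PBDC1, and L363 WT is low on ALOX5AP.

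DNAJC12 was tracked most closely by FADS2 (0.975), the delta-6 fatty acid desaturase, and by ACSM3 (0.969). FADS2 was at 277.86 and 265.05 FPKM in RPMI-8226 WT, 71.53 and 83.52 FPKM in RPMI-8226 BtzR, and 2.8 to 11.35 FPKM in the AMO1 and L363 libraries. NRIP1 was tracked by ZNF222 (0.942) and GAB3 (0.938), both at low FPKM. BTBD3 had the loosest matches, CD276 (0.869), an immune checkpoint ligand also called B7-H3, and ZFYVE16 (0.845). CD276 was at 0.08 and 0.18 FPKM in AMO1 WT and 4.87 and 4.31 FPKM in AMO1 BtzR, and at 20.06 and 21.11 FPKM in L363 WT. The match of INA to APBA1 (0.936) rests on L363 WT, where INA had 1.47 and 0.87 FPKM, and Spearman's rho was 0.386. CT55 followed at 0.886. By Spearman's rho ZNF222 was again closest to NRIP1, and a gene not named here was closest to each of the other members.

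Some markers of other blood cells moved in the same libraries as the genes. Of the T-cell markers, CD3D was listed at 0 in all myeloma libraries, while CD3E reached 10.66, CD247 3.26 and CD3G 2.16 FPKM. Of the myeloid markers, MPO reached 0.02, CSF1R 0.18 and CD14 0.32 FPKM in myeloma, and the summed level of 4 myeloid markers ran from 3.13 to 8.39 FPKM over all libraries, almost all of it LYZ. The summed level of 4 T-cell markers was 11.64 and 16.07 FPKM in AMO1 WT and 2.03 and 2.57 FPKM in AMO1 BtzR, and that of 5 B-cell markers 51.57 and 52.78 against 24.5 and 24.8 FPKM, so both moved with ALOX5AP and PBDC1 in that line. In RPMI-8226 the B-cell sum was 3.32 and 3.14 FPKM in WT and 0.21 and 0.38 FPKM in BtzR, and in L363 it was higher in BtzR, with 22.6 and 17.88 against 9.96 and 9.26 FPKM. ARH-77 had B-cell sums of 331.87 and 386.22 FPKM in WT and 439.62 and 473.56 FPKM in BtzR. The erythroid pair stayed at 0.33 FPKM or less and the fibroblast pair at 1.71 FPKM or less. The summed level of the 8 plasma-cell markers was below both WT libraries of the labelled line in each resistant myeloma group except L363 BtzR, where libraries overlapped, for example 914.55 and 851.92 FPKM in RPMI-8226 BtzR against 1231.86 and 1191.39 FPKM in WT. The AMO1 CfzR sums, 2264.42 and 2226.05 FPKM, overlapped the 2579.7 and 2230.4 FPKM of L363 WT. The part of these markers in the results was not tested.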

How the data were processed

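RNA from 20 libraries, 2 biological replicates in each of 10 groups, was sequenced on a BGISEQ-500. The authors deposited FPKM values for 18305 genes to 2 decimals with NCBI gene IDs, and the submitters' processing notes name HISAT2 2.0.4, Bowtie2 2.2.5 and RSEM 1.2.12, with no role given. The genome build is not given in the sources used here. FPKM divides by the mapped fragments of each library, so a few abundant genes can shift the others, and it keeps no read depth. Symbols listed more than once occupy 4 rows, none of them a member.

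Libraries were assigned to groups by their labels. The test was limma (3.58.1, R 4.3.3) on log2(FPKM + 1), with a mean per group over all 20 libraries (10 residual degrees of freedom), a mean-variance trend and Benjamini-Hochberg adjustment over 13089 genes that averaged 1 FPKM or more in some group. A fold change on this scale understates changes of low genes. With 2 libraries against 2 an exact permutation test cannot go below 0.33, so none was run. The WT lines were fitted too, but no test of them is read, since their libraries entered the choice of the genes. The fit was first tested on simulated data. Python 3.11.15 with pandas 2.3.3, numpy 2.4.6 and matplotlib 3.10.9 was used otherwise. Neighbour order and start-site windows came from RefSeq (GRCh38.p14), and no coordinate was taken from the deposited table.

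The members and lists were chosen with earlier results of these data known. Named are the members, the 2 genes most correlated with each, up to 4 called genes of largest change per list (leukotriene pathway, nuclear receptors and corepressors, DNAJC family, aromatic hydroxylases and cofactor, BTB relatives and CUL3, APBA partners, neighbours), and genes said to be chosen after their values were seen. Some items that this rule names are not reported here. Alternatives were pseudocounts of 0.1 and 0.01 FPKM, no filter or one at 5 FPKM, TPM and quantile scaling, no trend, a replicate block, leaving out each library, and fits restricted to the libraries compared.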

Additional observations from a re-analysis of the deposited data

Results flagged for a closer look

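DNAJC12 in ARH-77 BtzR was marked for a closer look because it moved opposite to the resistant myeloma groups in every library. Its log2-fold change was 0.24, with 14.63 and 12.12 FPKM in BtzR above 10.43 and 11.94 FPKM in WT, whereas all resistant myeloma libraries lay below the WT libraries of their line. The difference between ARH-77 and the myeloma lines was not tested, and the change in ARH-77 missed the threshold (adjusted p = 0.44 in limma). No check for single far-off libraries was possible with 2 libraries per group.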

How the results depend on the processing

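Of 420 alternative values for the fitted changes of the 6 genes in ARH-77, between the L363 groups and in the WT lines, 402 kept direction and side of the threshold, 13 gained a call and 5 turned direction, and none lost a call. The turns came from leaving out 1 library and were small: PBDC1 in ARH-77 (-0.11 to 0.39), ALOX5AP (-0.13 to 0.04), PBDC1 (-0.16 to 0.01) and APBA1 (-0.19 to 0.01) between L363 CfzR and BtzR, and ALOX5AP between AMO1 WT and ARH-77 WT (-0.13 to 0.73). With pseudocounts of 0.1 and 0.01 FPKM, members called went from 0 to 1 and 1 between the L363 groups and from 2 to 4 and 4 in AMO1 WT. Related genes called became 29 and 30 in AMO1 CfzR, 2 and 7 in L363 CfzR, 2 and 3 in L363 BtzR and 4 and 4 in ARH-77, where TPM or quantile scaling gave 2, a fit of its own libraries 0, and leaving out a library up to 3.

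All genes called rose with the same pseudocounts to 473 and 465 in ARH-77, 383 and 348 between the L363 groups, 1919 and 2024 in AMO1 BtzR, 580 and 582 in BtzR cells of L363, 2722 and 2846 in RPMI-8226, 546 and 517 in L363 CfzR, and 3413 in AMO1 CfzR at 0.01 FPKM. TPM scaling called 318 in ARH-77, and fits of the compared libraries only called 0 there and 109 between the L363 groups. Leaving out a library gave 199 to 343 in ARH-77. BTB relatives called became 5 with either pseudocount or quantile scaling, and neighbours 13 and 14 with the pseudocounts, 11 with TPM scaling and 4 at a filter of 5 FPKM. The cause was not tested.

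Deviations of same-numbered replicates correlated at r of 0.0694 to 0.296 in the 5 comparisons fitted for the genes and from -0.00554 (AMO1 BtzR) to 0.245 in the myeloma resistance comparisons. Each comparison holds only 2 numbers and the labels tie them to nothing shared, so they were not taken as pairs. With a replicate block the counts of members called were the same, and the NRIP1 change in ARH-77 (0.42) had an adjusted p of 0.016 in limma in place of 0.063, still under the fold limit. Depth is unknown, so values under 1 FPKM carry no counting error here, and the fold of PBDC1, ALOX5AP and APBA1 at such levels depends on the pseudocount: PBDC1 in RPMI-8226 BtzR read -1.71, -4.32 and -6.59 with 1, 0.1 and 0.01 FPKM.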
